A study of Mus musculus with 20 samples.

Results

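On mouse chromosome 1, the stretch from 140000000 to 150000000 (build mm8) is crowded with GPS2 peaks in 3T3-L1 cells. All peaks of 4 deposited lists whose centre lies between these bounds were taken as its members, 1954 of 164307 peaks in all. They divide into 909 of 44636 peaks of untreated cells, 937 of 60481 peaks of FCCP-treated cells, 72 of 40040 peaks of male brown adipose tissue (BAT) and 36 of 19150 peaks of female BAT. The stretch was selected on its peak number in the 3T3-L1 lists. Its crowding in those lists is therefore a description, and no test was made of it.

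GPS2 belongs to the corepressor complexes built on N-CoR and SMRT, which hold target genes down together with histone deacetylases. It also resides in mitochondria and can move to the nucleus when mitochondria are depolarised, where it acts on the promoters of nuclear-encoded mitochondrial genes. In adipocytes it is known for roles in lipid mobilisation, inflammation and mitochondrial content.

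The study measured DNA bound by GPS2 with ChIP-seq. The 3T3-L1 line is a clonal mouse preadipocyte line, and FCCP is an uncoupler that collapses the mitochondrial membrane potential; its dose and time are not given in the labels. The BAT lists come from wild-type mice on a mixed 129sv/C57BL6J background, 1 labelled male and 1 labelled female, although the growth protocol speaks of male animals only. Each was called against BAT of a GPS2 knockout of the same labelled sex, made by crossing Gps2 flox/flox mice with Adipoq-Cre mice. The adiponectin promoter drives that Cre in adipocytes, so other cells of the knockout tissue keep GPS2.

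For each 3T3-L1 list the 2 libraries of a condition were pooled before peak calling, and no control or input DNA of these cells entered the call. The pools held 74504840 tags (untreated) and 66979291 tags (FCCP), and the wild-type BAT libraries 30069322 (male) and 39310667 (female). With 1 list per condition, no difference between conditions has a replicate check. All intervals are 95% intervals; they cover only counting error and take peaks to be independent. The cell and BAT lists were called by different rules, so tissue and call rule cannot be told apart.

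In untreated cells the block held 90.9 peaks per Mb, against 22.47 per Mb over the rest of chromosome 1, a ratio of 4.045 (exact interval 3.761 to 4.347). After FCCP it held 93.7 per Mb against 30.72, a ratio of 3.05 (2.843 to 3.269). The block spans 5.15% of chromosome 1 between its first and last peak and carried 18.0% of the untreated and 14.2% of the FCCP peaks of that chromosome. Among 274 windows of 10 Mb over the autosomes and the X chromosome, it ranked 1 by untreated peaks and 2 by FCCP peaks. The only comparable window was chromosome 5 from 10 to 20 Mb, with 869 untreated and 989 FCCP peaks. Next in order, the densest other window of each list held 454 and 545 peaks, and the median window 144 and 202.5.

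In BAT the same stretch was sparse. The male list held 7.2 peaks per Mb in the block and 15.3 per Mb elsewhere on chromosome 1, a ratio of 0.4705 (0.367 to 0.5944). The female list held 3.6 and 7.375 per Mb, a ratio of 0.4882 (0.3404 to 0.6792). These counts were not part of the selection. The block ranked 218 and 225 of the 274 windows by male and female peaks. It was thus among the densest windows in both cell lists and in the lower part of the order in both BAT lists. This was not particular to the block. The chromosome 5 window held 52 male and 30 female peaks, fewer than the block. The next densest window by untreated peaks (454) held 43 male and 32 female peaks. That by FCCP peaks (545) held 58 and 43. The median window held 141 male and 68 female peaks.

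**Figure D1:**
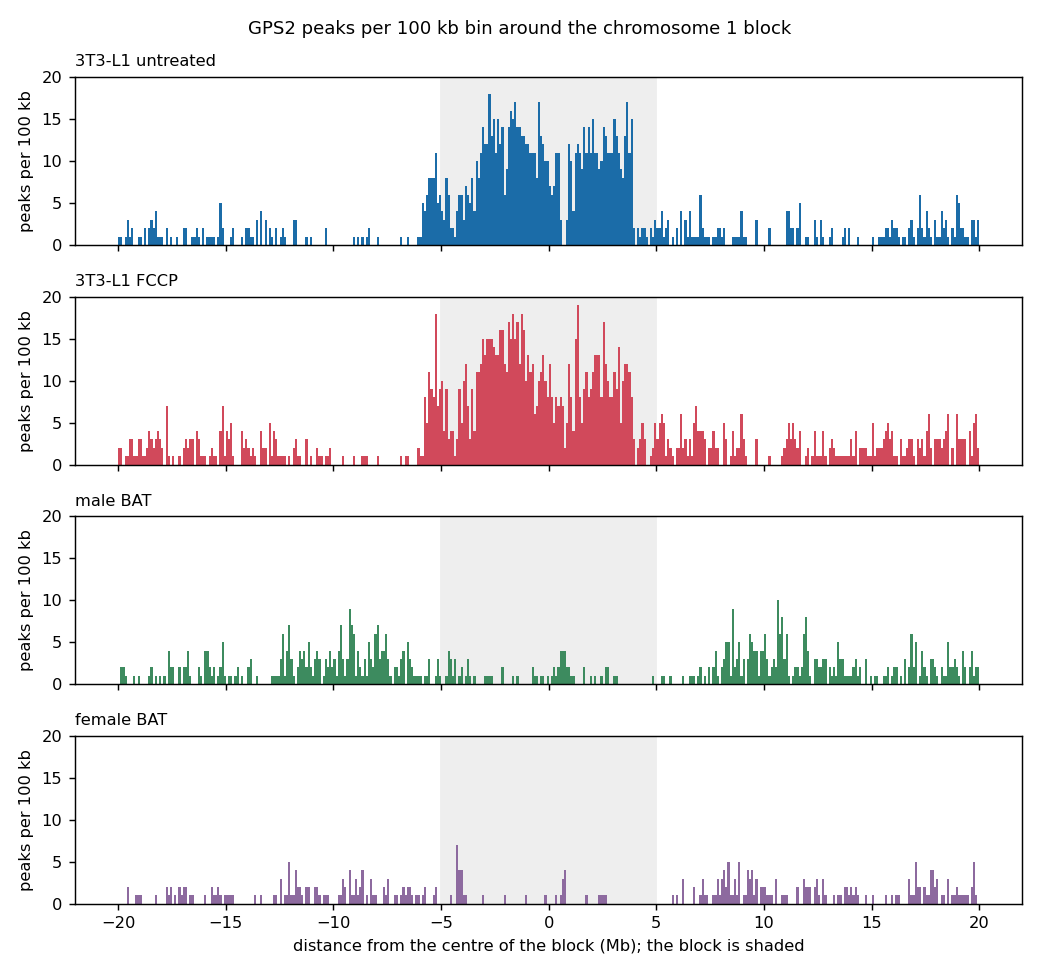
GPS2 peaks per 100 kb bin (y axis, bars) against the distance in Mb from the centre of the block (x axis) for the 4 lists, with the block shaded. Both 3T3-L1 lists rise and fall together at the margins of the block, where the median bin holds 11 untreated and 10 FCCP peaks, while 56 of its 100 bins hold no male and 81 no female BAT peak.

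The margins lay at nearly the same positions with and without FCCP, and the end was sharper than the start. A search for the single segment of 100 kb bins whose peak rate departed most from the rest of the chromosome (highest Poisson likelihood for 2 rates) gave 139.3 to 148.9 Mb in the untreated list. This segment held 945 peaks at 98.44 per Mb, against 22.22 per Mb outside. The FCCP list gave 139.2 to 148.9 Mb with 988 peaks at 101.9 per Mb, against 30.38. The segments that the same search found in the male and female BAT lists, 152.6 to 195.4 Mb and 152.0 to 195.1 Mb, did not touch the block.

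At the start of the untreated segment, the first 500 kb inside held 41 untreated peaks and the last 500 kb outside held 11. At its end the counts were 64 inside and 7 outside. In the FCCP list the same comparison at these positions gave 51 and 12 at the start and 53 and 13 at the end. Within the nearest 100 kb there was no clear step at the start, with 6 untreated peaks inside and 4 outside, and 5 and 8 after FCCP. At the end the counts were 15 and 2, and 8 and 3 after FCCP. BAT peaks were few at both margins. Over 500 kb at the start, male peaks numbered 5 inside and 4 outside and female peaks 3 and 5, and at the end there were 0 of either sex on both sides. Over 1 Mb the male counts were 10 inside and 15 outside at the start and 2 and 1 at the end, and the female counts 3 and 11, and 0 and 0.

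The bounds of the rule are round numbers and do not coincide with these margins. They leave out 52 untreated and 67 FCCP peaks between 139.3 and 140 Mb, and take in a thin tail from 148.9 to 150 Mb with 16 and 24. Just inside the lower bound lies an untreated peak at chr1:140018502-140018766 with a normalized tag count of 4.83, the tags in the peak scaled to a library of 10000000. Just outside it lies chr1:139988525-139988789 with 5.10. The FCCP peaks nearest that bound were chr1:140000039-140000299 with 4.63 inside and chr1:139988521-139988781 with 6.57 outside. At the upper bound the untreated peaks were chr1:149989694-149989958 with 4.56 inside and chr1:150041466-150041730 with 3.89 outside, and the FCCP peaks chr1:149982789-149983049 with 4.33 and chr1:150033002-150033262 with 3.88. Nothing in these heights sets the bounds apart.

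The flanks of the untreated segment differed from each other. The 5 Mb before it held 22 untreated, 27 FCCP, 142 male and 55 female peaks. The 5 Mb after it held 73, 127, 56 and 44. Cell peaks were thus scarce, and male BAT peaks numerous, on the side before the block. The 22 untreated peaks there were tall, with a median normalized tag count of 6.11, against 4.03 for the 73 after it.

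Crowding within the block was broad, not a matter of a few dense spots. Of its 100 bins of 100 kb, 76 held at least 5 untreated peaks and 57 at least 10. The corresponding shares of the 1841 bins over the rest of the chromosome were 17.4% and 0.978%. After FCCP 81 block bins held at least 5 peaks and 52 at least 10, against 26.9% and 2.77% elsewhere. By contrast 56 of the 100 bins held no male peak and 81 no female peak.

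From 140 to 150 Mb, successive 1 Mb windows held 42, 76, 128, 137, 115, 60, 107, 116, 114 and 14 untreated peaks. The FCCP counts were 52, 94, 142, 149, 101, 74, 96, 113, 95 and 21. Both lists peak between 142 and 144 Mb, dip between 145 and 146 Mb and drop after 149 Mb. Across the 100 bins the untreated and FCCP counts had a Pearson correlation of 0.79 and a Spearman correlation of 0.77, and across the rest of the chromosome 0.77 and 0.79. These are descriptions over bins of a single pair of lists.

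BAT peaks gathered in parts of the block where cell peaks were fewer, but not in its sparsest window. That window, from 149 to 150 Mb, held 14 untreated, 21 FCCP, 1 male and 0 female peaks. The window from 140 to 141 Mb held 15 male and 16 female peaks, and the window from 145 to 146 Mb held 22 and 9; no other window of the block held more than 7 male or 4 female peaks. In the 2 adjoining bins from 145.6 to 145.8 Mb there were 0 and 0 untreated peaks, 7 and 2 FCCP peaks, 4 and 4 male peaks and 3 and 4 female peaks. Sorting the 100 bins by their BAT peaks, 47 bins with none had a median of 11 untreated and 11 FCCP peaks. The 42 bins with 1 or 2 BAT peaks had medians of 11 and 10. The 11 bins with 3 or more, which held 55 of the 108 BAT members, had medians of 4 and 5. This grouping was made after the counts had been seen. Across all bins, untreated and male counts had a Pearson correlation of -0.255 in the block and -0.252 over the rest of the chromosome. The Spearman values were -0.141 and -0.286. For untreated and female counts the Pearson values were -0.255 and -0.138, and the Spearman values -0.193 and -0.148. An inverse relation with BAT peaks was thus also present outside the block.

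The cell peaks in those 11 bins were also taller and lay in a higher surrounding signal. The surrounding signal is given as local density, the normalized tag count divided by the authors' fold over the surrounding 10000 bp, that is, the normalized tags expected in a peak's width from its neighbourhood. Untreated peaks had a median normalized tag count of 5.23 and a local density of 1.07 in these bins, against 4.16 and 0.768 in the bins without BAT peaks. For FCCP peaks the values were 5.08 and 0.953 against 4.33 and 0.788. The call required a cell peak to stand at least 4-fold over its surroundings, so a peak in a higher local density must be taller to be listed. How much of the thinning this rule accounts for was not tested.

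**Figure D2:**
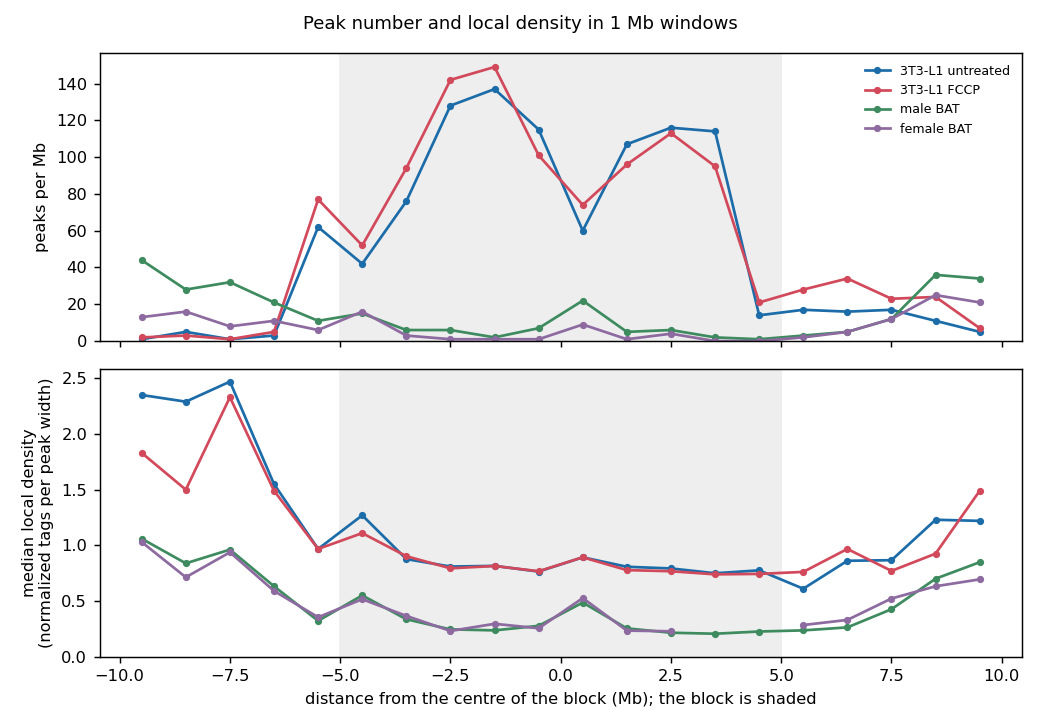
Peaks per Mb (upper panel) and median local density of those peaks (lower panel, normalized tags per peak width) in 1 Mb windows against the distance in Mb from the block centre, for the 4 lists; the block is shaded and a window without peaks has no point. Local density in all 4 lists has a local rise in the first window of the block and in the window just past its centre, where cell peaks are fewer and BAT peaks more numerous.

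Neighbouring peaks lay close together. The median distance between neighbouring centres was 6997 bp in the block and 19384 bp over the rest of the chromosome for untreated cells, and 6734 and 14424 bp after FCCP. In the block 14.6% of the untreated distances and 15.7% of the FCCP distances were under 2 kb, against 5.42% and 6.03% elsewhere. Spacing was more even in the block than over the rest of the chromosome. The SD was 1.63 times the mean for untreated and 1.41 times for FCCP, against 2.17 and 2.26 elsewhere. The rest pools stretches of unlike density, with 80 to 428 untreated peaks per 10 Mb window, and no stretch of like density was compared. Short spacing follows from density, and the peak calls asked for minimum distances of 528 and 522 bp. Male BAT members lay wider apart (median 48923 bp, elsewhere 28611). The 36 female members had a median of 46869 bp and the rest 66451; 22 of them lie in 5 bins with at least 3 female peaks, at 140.7 to 141.0 and 145.6 to 145.8 Mb.

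The block's cell peaks were slightly taller than the others of the chromosome at the median and lacked the tallest ones. The median normalized tag count was 4.30 (interval 4.16 to 4.43, quartiles 3.76 and 5.10) in the block and 4.03 elsewhere for untreated cells. After FCCP the medians were 4.33 (4.33 to 4.48) and 4.18. Peaks of at least 5 made up 26.1% of the block's untreated peaks (Wilson interval 23.3 to 29.0) and 18.4% of the others (17.2 to 19.6). Peaks of at least 7 made up 1.43% (13 peaks, 0.838 to 2.43) and 4.30% (3.73 to 4.97). After FCCP these shares were 27.5% and 22.3% for at least 5, and 2.67% (25 peaks) and 4.86% for at least 7. Only 1 block peak of each cell list reached 10, where the rest of the chromosome had 48 untreated and 62 FCCP peaks. The distribution in the block is thus shifted up in its middle and short in its upper tail.

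The tallest untreated peak of the block, chr1:141161860-141162124, had a normalized tag count of 11.4, and the FCCP peak that overlaps it had 9.26. The next were chr1:140414352-140414616 and chr1:144894114-144894378, both with 9.13, whose FCCP partners had 7.76 and 7.32. The tallest FCCP peak, chr1:147883160-147883420, had 10.3 and its untreated partner 7.92. It was followed by chr1:141161875-141162135, the partner of the tallest untreated peak, and by chr1:141546123-141546383 with 9.26 and an untreated partner of 6.04. Each of these tallest peaks was present in both lists.

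**Figure D3:**
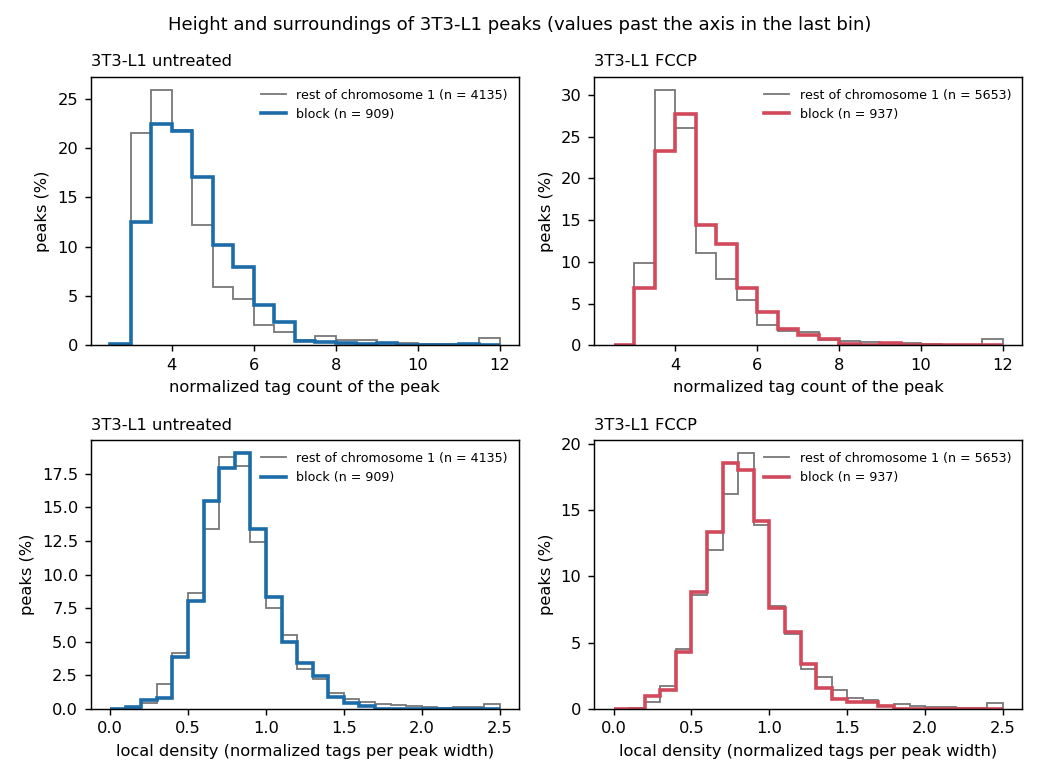
Share of peaks (y axis, %) by normalized tag count (upper panels, bins of 0.5) and by local density (lower panels, normalized tags per peak width) for untreated and FCCP-treated 3T3-L1 cells, in the block (coloured) and over the rest of chromosome 1 (grey). The block's peaks are shifted to higher tag counts, with few at 7 or more, while the local densities of block and rest nearly coincide, with medians of 0.812 and 0.816 in untreated cells.

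The surroundings of the cell peaks hardly differed. Median local density was 0.812 (0.798 to 0.826) in the block and 0.816 elsewhere for untreated cells, and 0.816 (0.796 to 0.828) and 0.831 after FCCP. These medians lie below the signal that the callers expected per peak over the genome, 1.32 and 1.305 normalized tags. At a tag count equal to the call threshold (3.49 and 3.58 normalized tags), 4-fold is reached only at a local density up to 0.872 and 0.896. The deposited tag counts of listed peaks went down to 2.82 and 2.84, below these values. The deposited scores of autosomal peaks went down only to 26 and 24, equal to the thresholds in tags. The threshold thus shows in the score and not in the normalized tag count. The 4-fold rule removed 229680 untreated and 226519 FCCP candidate peaks over the genome, more than the lists kept. Local density is known here only at listed peaks, so the likeness of the medians says little about the stretches between them.

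Fold over the surroundings was a little higher in the block, with medians of 5.27 against 4.92 for untreated cells and 5.36 against 5.00 after FCCP. The focus ratio, the authors' fraction of a peak's tags that lie on the proper side of its centre for their strand, was 0.741 against 0.733 and 0.742 against 0.735. The block's cell peaks were thus close in form to the other peaks of the chromosome. In the chromosome 5 window the untreated medians were 4.30 normalized tags, as in the block, a focus ratio of 0.750, a fold over the surroundings of 5.02 (4.92 to 5.11) and a local density of 0.851 (0.831 to 0.868). Its fold lay below the block's (5.16 to 5.36) and its local density above it.

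The BAT members stood in low surroundings. Median local density was 0.380 (0.314 to 0.441) for male members and 0.647 over the rest of the chromosome, and 0.463 (0.367 to 0.527) against 0.574 for female members. Their median normalized tag counts were 3.66 (3.33 to 3.99) against 3.99, and 2.92 (2.80 to 3.31) against 3.31. Their fold over the surroundings was accordingly high, 10.9 against 6.34 in the male and 6.53 against 5.55 in the female list. At the median, male and female members were thus nominally shorter than other BAT peaks of the chromosome, the opposite order to the cell peaks. Each interval reached the median of the other peaks, so neither BAT difference is set apart from counting error. Low surroundings were not particular to the block. In the chromosome 5 window the median local density was 0.385 (0.350 to 0.414) for male and 0.394 (0.324 to 0.484) for female peaks. The folds there were 9.25 and 7.5, and the tag counts 3.66 and 3.05.

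Persistence across FCCP asks whether a peak listed in one condition is also listed in the other. Of the 909 untreated members, 490 shared at least 1 bp with an FCCP peak, 53.9% (Wilson interval 50.7 to 57.1); over all chromosomes the share was 41.6%. Over the rest of chromosome 1 it was 1689 of 4135, 40.8% (39.4 to 42.4). Of the 937 FCCP members, 490 overlapped an untreated peak, 52.3% (49.1 to 55.5), against 30.7% over all chromosomes and 29.9% (28.7 to 31.1) over the rest of chromosome 1. The block's shares lay above both backgrounds, and the intervals do not meet. Both directions count the same 490 pairs in the block and the same 1689 over the rest of chromosome 1. The 2 comparisons are thus not independent. Each share also depends on the peak number of its list, on which the block was selected. In the chromosome 5 window the shares were 55.1% and 48.4%, close to those of the block.

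The upper 2 classes by height persisted more often than the lower 2, in the block and elsewhere. The whole untreated list was cut at its quartiles of tag count, and from the lowest to the highest class 36.5%, 35.7%, 55.5% and 65.7% of the block's peaks overlapped an FCCP peak. Over the rest of the chromosome the shares were 27.8%, 33.8%, 42.2% and 54.7%. For FCCP peaks the block had 40.2%, 43.4%, 50.8% and 62.6%, and the rest 18.0%, 25.9%, 28.5% and 42.7%. The block's share was higher in each class, but in the 2 lower classes of the untreated list the intervals overlapped.

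**Figure D4:**
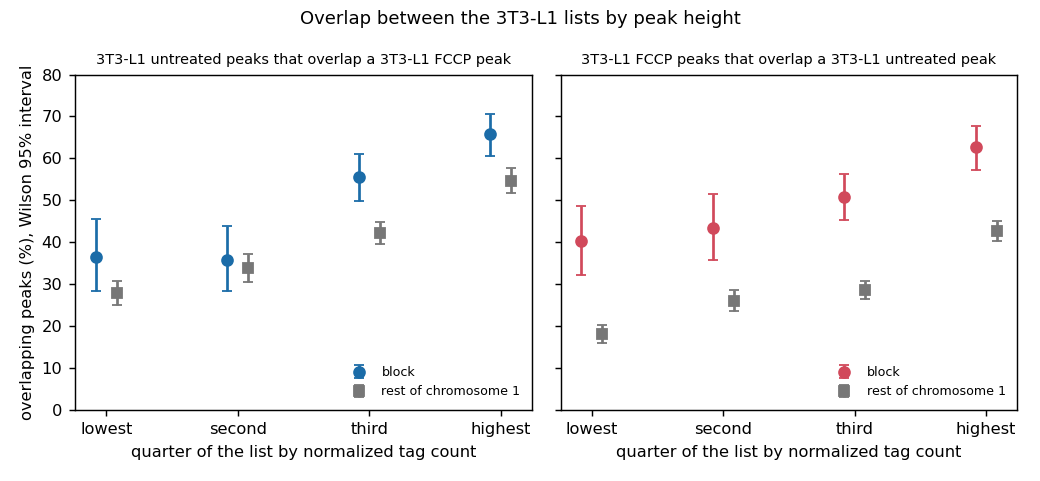
Share of peaks that overlap a peak of the other 3T3-L1 list (y axis, %, bars are Wilson 95% intervals) by class of the whole list, divided at its quartiles of normalized tag count (x axis), in the block (circles) and over the rest of chromosome 1 (squares). The highest class has the highest share in each series, and for FCCP peaks each block share lies above the interval of the rest, from 40.2% against 18.0% in the lowest class to 62.6% against 42.7% in the highest.

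Crowding itself brings overlaps. Positions at which an FCCP-sized peak would touch an untreated peak made up 4.77% of the block and 1.18% of the rest of the chromosome. For an untreated-sized peak against FCCP peaks the figures were 4.92% and 1.61%. How much of the difference in the shares this gives was not tested. Among the 419 untreated members without an FCCP partner, the nearest FCCP centre lay a median of 3630 bp away, and 67 had one within 1 kb. Among the 447 FCCP members without a partner the median was 3321 bp, with 76 within 1 kb.

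As deposited, the FCCP list held 1.031 times as many peaks there as the untreated list (0.940 to 1.131), while over the rest of chromosome 1 it held 1.367 times as many (1.313 to 1.423) and over all chromosomes 1.355 times. These counts are the ones the block was selected on, so its ratio is a description. The number depended on the peaks counted: for peaks that stood 8-fold or more above the local region, the block's ratio was 1.359 (1.005 to 1.845), and with the same number of top-scoring peaks in each list it was 0.756. The block's ratio was 0.754 times that of the rest (0.682 to 0.833) for all peaks, 0.753 (0.542 to 1.05) for the 8-fold peaks and 0.721 (0.625 to 0.832) for the top-scoring ones. For all peaks it was the lowest among 251 windows of 10 Mb with at least 50 untreated peaks, whose median was 1.37 and whose next lowest value was 1.09. In the chromosome 5 window the ratio was 1.138 (1.038 to 1.248). Among peaks of at least 5 normalized tags the block's ratio was 1.089 (0.909 to 1.304) and that of the rest 1.66.

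The 1 Mb windows of the block had ratios from 0.833 to 1.5, and 4 of the 10 were below 1, those from 144 to 145 and from 146 to 149 Mb. The interval of each single window included 1, so in none were FCCP and untreated numbers set apart beyond counting error. The windows were not compared with each other. Among the few peaks of at least 7 normalized tags, 13 untreated and 25 FCCP peaks, the ratio was 1.923 with an interval from 0.947 to 4.09. Over the rest of the chromosome 178 and 275 such peaks gave 1.545 (1.275 to 1.876), so at this height the block's value was the higher, within a wide interval.

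**Figure D5:**
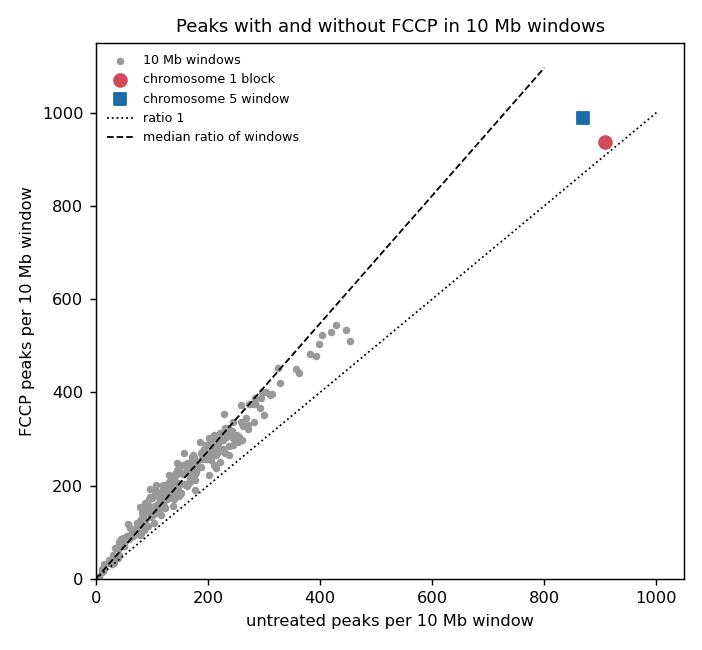
FCCP peaks (y axis) against untreated peaks (x axis) in 10 Mb windows, each point a window, with lines for equal numbers and for the median ratio of windows. The chromosome 1 block, with 909 and 937 peaks, and the chromosome 5 window, with 869 and 989, lie far to the right of the other windows, and the block has the lowest ratio of the 251 windows with at least 50 untreated peaks.

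At the peaks listed in both conditions, heights were balanced. Over the 490 overlapping pairs of the block, the median log2 ratio of FCCP to untreated normalized tag count was 0.01 (-0.03 to 0.04), with quartiles of -0.17 and 0.20. The FCCP peak was the taller in 247 pairs, 50.4% (46.0 to 54.8). Over the rest of chromosome 1 the median was 0.05 (0.04 to 0.07) and 57.7% of 1689 pairs were taller after FCCP (55.3 to 60.0). The intervals of the medians just overlap, and those of the shares do not meet. In the chromosome 5 window the median was 0.04 (-0.01 to 0.05), and 53.2% of 479 pairs were taller after FCCP (48.8 to 57.7). Both intervals there overlap those of the block.

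Few pairs differed by much. In the block 9 of 490 pairs (1.84%) were at least 1.5 times higher after FCCP, where 2.49% of pairs over all chromosomes were. In the other direction 16 pairs (3.27%) were at least 1.5 times higher without FCCP, where 0.669% over all chromosomes were. Over the rest of chromosome 1 the numbers were 52 (3.08%) and 5 (0.296%) of 1689. The SD of the log2 ratio over the pairs was 0.285 in the block and 0.256 over the rest of chromosome 1. Counting of tags alone gives an expected SD of 0.36 and 0.362, above both. Both peaks of a pair had to pass the peak call, which narrows these ratios. Whether the 16 pairs exceed what counting gives was not tested.

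Among 224 pairs in which both peaks reached the block's median height of their list, the largest ratio was 1.57 (exact interval 0.991 to 2.51) at chr1:143568555-143568815, with 7.17 normalized tags after FCCP and 4.56 without. It was followed by chr1:141546123-141546383, with 9.26 and 6.04 and a ratio of 1.53 (1.03 to 2.3), and by chr1:142875030-142875290, with 7.91 and 5.37 and a ratio of 1.47 (0.959 to 2.28). The smallest ratio was 0.642 (0.395 to 1.02) at chr1:147925500-147925760, with 4.48 after FCCP and 6.98 without. Then came chr1:140205086-140205346, with 5.52 and 8.46 and a ratio of 0.653 (0.423 to 0.996), and chr1:145224712-145224972, with 4.48 and 6.85 and a ratio of 0.654 (0.402 to 1.05). Of these 6 extremes, 4 had an interval that included 1, and no interval was adjusted for the choice among 224 pairs.

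The few BAT members overlapped cell peaks more often than BAT peaks elsewhere. Of the 72 male members 16 shared at least 1 bp with at least 1 of the 3T3-L1 lists, 22.2% (14.2 to 33.1), against 5.12% over all chromosomes and 6.39% over the rest of chromosome 1. Of the 36 female members 8 did, 22.2% (11.7 to 38.1), against 5.87% and 7.81%. The density of cell peaks in the block makes such overlaps more frequent, and how much of the difference this gives was not tested. Peaks of both cell lists were overlapped by 6 male members (8.33%, 3.88 to 17.0; 1.35% over all chromosomes) and by 4 female members (11.1%, 4.41 to 25.3; 1.69% over all chromosomes).

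The tallest of these male members were chr1:141263658-141263792 with 6.98 normalized tags, chr1:140414453-140414587 with 5.99 and chr1:141161903-141162037 with 5.65. They stood 6.19-fold, 3.79-fold and 4.18-fold over the knockout. The 2 latter lie on the tall untreated cell peaks at chr1:140414352-140414616 and chr1:141161860-141162124. The 3 tallest such female members were chr1:140866419-140866557 with 4.07, chr1:142979400-142979538 with 3.31 and chr1:146768806-146768944 with 2.80, and stood 7.40-fold, 4.01-fold and 5.09-fold over the knockout. None of the 3 male positions coincides with one of the 3 female positions.

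The BAT lists shared 1 site in the block. The male peak chr1:140423210-140423344 had 11.0 normalized tags, the highest of the male members, and stood 4.42-fold over the knockout. It overlapped the female peak chr1:140423271-140423409, with 3.82 and 4.63-fold. This is 1 of 72 male members (1.39%, 0.246 to 7.46), where 3.6% of male peaks over all chromosomes overlapped a female peak. It is 1 of 36 female members (2.78%, 0.492 to 14.2), where 7.53% of female peaks overlapped a male peak. With so few members neither share can be set apart from its background.

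The other tall male members were chr1:145709263-145709397 with 8.31 and chr1:141263658-141263792, named above. The tallest female members were chr1:145766186-145766324 with 5.85, chr1:140798871-140799009 with 4.32 and chr1:140866419-140866557. Except for chr1:141263658-141263792, they lie in the windows from 140 to 141 and from 145 to 146 Mb where BAT peaks gather. Median fold over the knockout was 6.63 for male members and 5.90 over the rest of chromosome 1, and 5.55 against 6.02 for female members. The knockout libraries had a median of 1.4 tags under male and 2 under female members, so these folds rest on very few tags.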

How the data were processed

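GPS2 ChIP-seq peak lists of 4 of the 20 samples were used; the other samples were not analysed here. The submitters' processing notes name Bowtie2, HOMER and build mm8; tool versions are not given in the sources used here. Per the file headers, 3T3-L1 peaks met a false discovery rate of 0.001, 4-fold over 10000 bp of surroundings and at most 3 tags per base pair. BAT peaks met 0.05, at most 1 tag per base pair, and 2-fold over both the surroundings and the knockout. The deposited normalized tag count and knockout tags are signals, the score column deposited by the authors is the tag score of HOMER, the focus ratio is a fraction as deposited by the authors, and the deposited fold values are ratios to the surroundings or the knockout. P-value and clonal-tag columns were not used.

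Peaks on assembled chromosomes were assigned by their centre, and local density is the tag count over the local fold. Overlap means at least 1 bp, paired with the longest overlap. Ratios of peak numbers and of tags carry exact intervals, shares Wilson intervals and medians order-statistic intervals, all at 95%; the interval of the ratio of 2 such ratios uses the log scale. The segment search and the overlap step were tested on simulated data. Named peaks are the 3 tallest of each list, the 3 largest and 3 smallest ratios among pairs at or above the block's median heights, the peaks nearest each bound, and BAT members that overlap the other BAT list or, by height, up to 3 that overlap both cell lists. Alternatives were the segment's margins, other autosomes, folds of at least 8 over the surroundings in cells and 4 over the knockout in BAT, the same number of top-scoring peaks per list, other overlap rules and other bin sizes. Members, lists and rules were chosen with earlier results of these data known. Genes and sequences are not given, since no mm8 annotation was used here and positions were not converted from GRCm38. Scripts ran in Python 3.11.15 with SciPy 1.17.1, pandas 2.3.3, numpy 2.4.6 and matplotlib 3.10.9.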

Additional observations from a re-analysis of the deposited data

Results flagged for a closer look

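The block departed from the rest of chromosome 1 in opposite directions in cells and in BAT. The ratio of peak density was 4.045 in untreated cells and 3.05 after FCCP, but 0.4705 in male and 0.4882 in female BAT. The ratio of median normalized tag count was 1.067 and 1.036 in the cell lists, and 0.9173 and 0.8837 in the BAT lists, whose intervals reach 1.0. The chromosome 5 window was likewise dense in cell peaks (869 and 989) and sparse in BAT peaks (52 male and 30 female). The difference between cells and BAT was not tested: there is 1 list per condition, the cell lists had no control, and the block was selected on the cell counts.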

How the results depend on the processing

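Of 57 alternative values, 36 stayed within the counting interval of the value reported or, for margins of the segment, within 1 bin of it. The top-scoring cut took 19122 peaks per list, the whole female list on assembled chromosomes. The female density ratio, counted among the 36, could therefore not change under it. With the margins of the segment search, the density ratio was 4.429 for untreated and 3.356 for FCCP peaks. Against all other autosomes it was 5.367 and 4.096, with at least 8-fold over the surroundings 5.416 and 4.08, and with the same number of top-scoring peaks per list 5.289, 3.814 and, for male BAT, 0.348. Against other autosomes the ratio of median tag count was 1.105 and 1.074. The ratio of median local density was 1.022 in untreated cells, and in FCCP cells it turned from 0.9824 to 1.006; with the segment's margins the FCCP value was 0.9981. The share of untreated members overlapping FCCP peaks was 46.2% with stricter folds and 37.5% with top-scoring peaks. It was 47.0% when 50% of the shorter peak had to overlap. The FCCP share was 34.0% with stricter folds and 45.6% with 50%. Shares over the rest of chromosome 1 were not computed under these settings. Whether the block's shares stay above that background is therefore not known. The block's FCCP to untreated ratio of peak numbers was 1.359 with stricter folds and 0.756 with top-scoring peaks, alternatives chosen after seeing the data. Relative to the rest of chromosome 1 that ratio was 0.753 (0.542 to 1.05) and 0.721 (0.625 to 0.832) under them. The stricter folds leave fewer peaks; the cause of the other shifts was not tested. Bin sizes of 50 and 200 kb moved no margin by more than 0.1 Mb. No paired analysis was possible because each condition has 1 list. Depth limits single peaks: a ratio of 1.57 from 48 and 34 tags had an interval that included 1.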
